A study of Homo sapiens with 6 samples.

Results

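The KEAP1-NRF2 antioxidant and glutathione genes were followed in ACHN cells, an established human renal cancer cell line, after siRNA against OTUD1. The 41 genes of the set were picked by symbol for their known role, with earlier results of these data known. The set was taken from 58735 rows of the count table, and every member has exactly 1 row. It comprises 3 regulators, 9 glutathione genes, 9 thioredoxin and peroxiredoxin genes and 2 genes of superoxide and hydrogen peroxide removal. The others are 4 genes of NADPH supply and the pentose phosphate pathway, not all of which make NADPH, and 14 genes of detoxification and stress response. The study has 3 libraries from cells transfected with an OTUD1 siRNA (labelled si01) and 3 from cells transfected with a control siRNA (labelled NC). The labels give the same serum-containing medium for both groups and name no oxidant or electrophile treatment. OTUD1 is a deubiquitinase, an enzyme that removes ubiquitin from proteins. The labels do not say whether the replicates were separate cultures, so p-values measure the spread between these libraries, which may be technical. The OTUD1 group carries 1 siRNA in 1 cell line, so loss of OTUD1 and any other action of that siRNA cannot be told apart, and the sources used here do not give the time after transfection.

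NRF2, encoded by NFE2L2, is a transcription factor that switches on genes for the defence against oxidants and electrophiles. Under basal conditions KEAP1 presents NRF2 to a CUL3 ubiquitin ligase and NRF2 protein is degraded. Oxidants and electrophiles modify cysteines of KEAP1, NRF2 then accumulates, pairs with a small MAF protein and binds antioxidant response elements near its targets. OTUD1 protein has been described to bind KEAP1 through a motif like that of NRF2. Because NRF2 is controlled largely as a protein, mRNA levels do not measure its amount or activity.

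Total counts were 17243433 to 21013530 in OTUD1 siRNA libraries and 16753495 to 18993534 in control siRNA libraries. OTUD1 was at 1.28, 0.844 and 1.39 CPM (normalised counts, scaled by TMM) in OTUD1 siRNA libraries, against 3.82, 3.69 and 3.8 CPM in control siRNA libraries, and the groups did not overlap (3.22-fold lower; log2 fold change -1.69 ± 0.24 SE, adjusted p = 4.37e-07, edgeR). Of 10 renal epithelial markers, PAX8, KRT8 and KRT18 were present (409, 1957 and 726 CPM on average in OTUD1 siRNA libraries, against 642, 4112 and 1604 CPM in control siRNA libraries), CDH16 was under 1 CPM and CDH6 had 0 counts in every library. Of the 9 renal markers tested, 6 fell and 2 rose, and the list summed to 3654 to 3783 CPM in OTUD1 siRNA libraries, against 6836 to 7089 in control siRNA libraries; its part in the results was not tested. The leukocyte markers PTPRC and CD3E had 0 counts in all libraries, where 3 counts correspond to 0.137 to 0.188 CPM, and the 6 leukocyte markers summed to 1.241 to 1.944 CPM in OTUD1 siRNA libraries, against 1.542 to 1.752 in control siRNA libraries. Within that list CD8A rose 3.59-fold (0.645 CPM in OTUD1 siRNA libraries and 0.176 CPM in control siRNA libraries, adjusted p = 0.00485, edgeR), and CD14 did not pass (log2 fold change -0.66). The 8 fibroblast and endothelial markers, mostly THY1, summed to 165.3 to 178.3 CPM in OTUD1 siRNA libraries, against 294 to 304.2 in control siRNA libraries. Of the 4 of them tested, THY1 fell 2.1-fold, ACTA2 rose 2.47-fold and PDGFRB rose 1.74-fold, and the part of these markers in the results was not tested. In such bulk samples, fewer cells expressing a gene and less RNA per cell cannot be told apart.

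Most members that changed fell after OTUD1 siRNA. Of the 41 members, 39 had enough counts to be tested, and 24 of these fell (61.5%), 3 rose (7.69%) and 12 did not pass (edgeR's quasi-likelihood test, Benjamini-Hochberg adjusted p under 0.05 over all 15244 genes tested). Across all genes tested, 31.1% were called lower and 29.3% higher, 60.4% in all. The members were chosen with earlier results of these data known, so this contrast is a description only. Scaling by library totals alone, without TMM, gave 21 members lower and 8 higher, with 3456 and 6189 of all genes, and moved the median log2 fold change of all genes to 0.13; limma after quantile normalization gave 19 members lower and 6 higher. Decreases of at least 1.5-fold were called for 10 members and increases of that size for 0, against 10.8% and 12.2% of all genes. The median log2 fold change was -0.23 over the members tested and 0.0056 over all genes. The values of the groups did not overlap, with the OTUD1 siRNA libraries lower, for 24 tested members, against 33% of all genes, and with them higher for 3, against 31.5%.

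**Figure D1:**
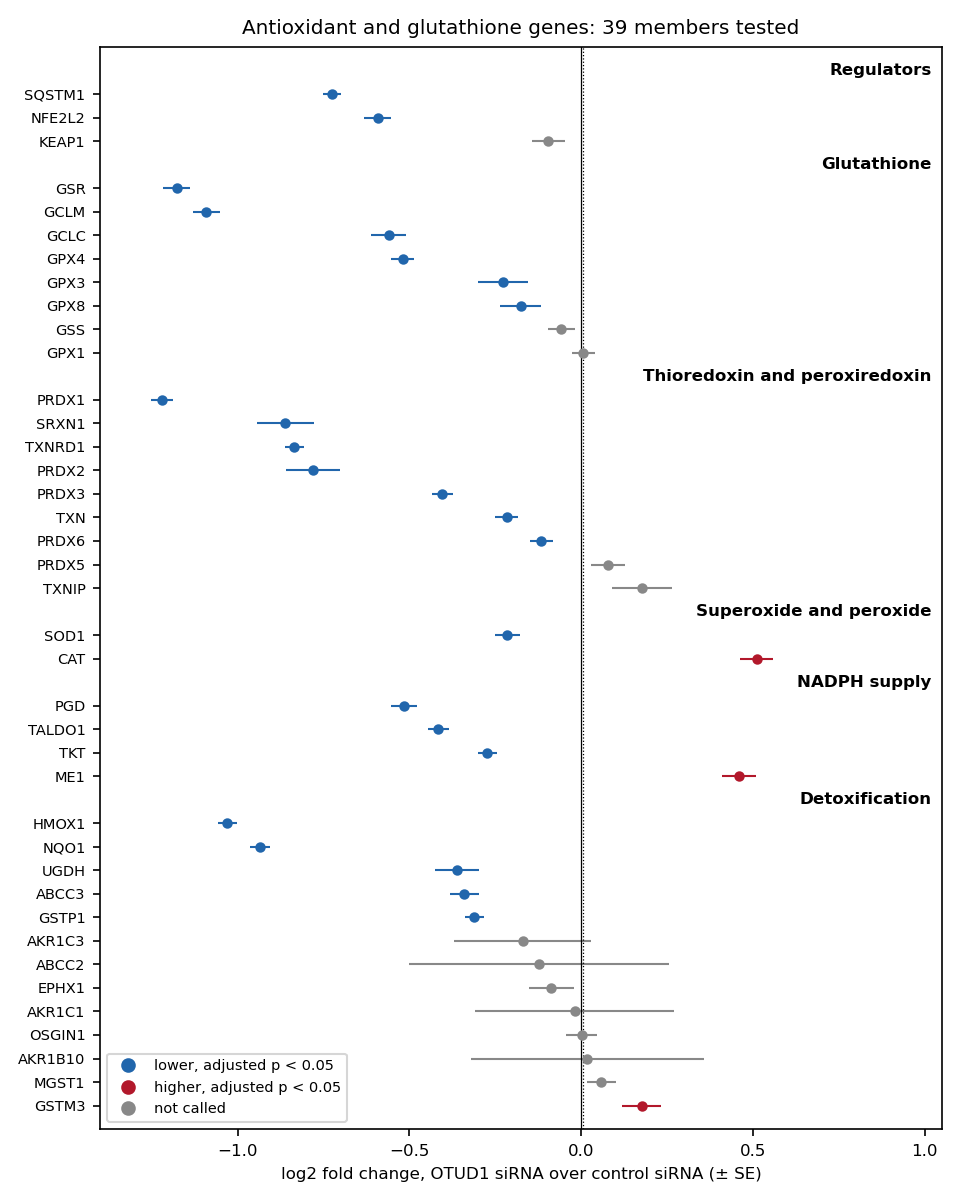
Log2 fold change of each of the 39 tested members (OTUD1 siRNA over control siRNA, horizontal axis; points with SE bars), grouped by role. The 24 members called lower lie left of 0 down to -1.22 (PRDX1), the 3 called higher reach 0.51 (CAT), and the dotted line marks the median of all genes tested at 0.0056.

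Among the regulators, NFE2L2 and SQSTM1 fell while KEAP1 did not pass the test. NFE2L2 (ENSG00000116044.15; hg38 chromosome 2, 177227595 to 177392697, minus strand) was at 128, 128 and 121 CPM in OTUD1 siRNA libraries, against 181, 197 and 189 CPM in control siRNA libraries. All 3 OTUD1 siRNA libraries lay below all 3 control libraries, and the log2 fold change came to -0.59 ± 0.039 (SE, adjusted p = 1.43e-13, edgeR), a 1.51-fold decrease. An annotated gene on the same strand, AC019080.1, shares 17.6% of the exon bases of NFE2L2 but holds only 508 counts over the 6 libraries.

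KEAP1 (ENSG00000079999.13; chromosome 19, 10486120 to 10503741, minus strand) had 92.9, 88.1 and 99.3 CPM in OTUD1 siRNA libraries, against 105, 98.1 and 96.2 CPM in control siRNA libraries. The groups overlapped, and the log2 fold change of -0.095 had a 95% interval of -0.19 to 0.0015 (edgeR adjusted p = 0.083). Without OTUD1 siRNA replicate 3, its highest OTUD1 siRNA value, KEAP1 was called lower (log2 fold change -0.14, edgeR adjusted p = 0.0211).

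SQSTM1 encodes p62, an autophagy receptor that binds KEAP1 and is itself a target of NRF2. It was at 1019, 1040.3 and 1073 CPM in OTUD1 siRNA libraries, against 1749, 1698 and 1726 CPM in control siRNA libraries. The groups were far apart relative to their spread, with a log2 fold change of -0.72 ± 0.026 (SE, adjusted p = 1.27e-19, edgeR). SQSTM1 shares 20.7% of its exon bases with MRNIP on the opposite strand, and the sources used here do not give the strand setting of the counting. MRNIP holds 3093 counts over all libraries, against 150969 for SQSTM1.

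NRF2 binds antioxidant response elements, whose core is written here as TGACNNNGCA, and the members that carry this core near a RefSeq start are shown because they include both strong responders and genes that did not pass the test. RefSeq promoter windows on GRCh38.p14, 250 bases before to 50 after a gene's start, were matched by symbol for 33 of the 41 members and searched on both strands. ABCC3, AKR1B10, GSR, GSS, HMOX1, PRDX1, PRDX6 and SOD1 had no entry. The core was found for 7 of the 33 (21.2%), against 3.94% of all 27305 symbols with a window and 3.18% of the 35116 windows. Each is printed 5′ to 3′ along the gene's strand with the core in capitals; where it reads TGCNNNGTCA the match is on the other strand.
GCLM, chr1:93909441-93909480, minus strand: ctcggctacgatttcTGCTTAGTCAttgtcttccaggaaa
TXNRD1, chr12:104286914-104286953, plus strand: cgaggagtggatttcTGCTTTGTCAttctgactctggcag
GSTP1, chr11:67583731-67583770, plus strand: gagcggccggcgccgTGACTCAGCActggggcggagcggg
KEAP1, chr19:10502779-10502818, minus strand: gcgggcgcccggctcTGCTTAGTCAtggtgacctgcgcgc
EPHX1, chr1:225825261-225825300, plus strand: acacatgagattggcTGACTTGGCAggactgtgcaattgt
MGST1, chr12:16347130-16347164, plus strand: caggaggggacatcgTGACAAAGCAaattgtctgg
GPX2, chr14:64942844-64942883, minus strand: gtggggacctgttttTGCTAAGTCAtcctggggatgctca
For TXNRD1, EPHX1 and KEAP1 that RefSeq start lies 71253, 15262 and 970 bases inside the 5′ end of the GENCODE gene span, so these windows belong to internal starts, while for GCLM, GSTP1, MGST1 and GPX2 the starts differ from it by 217 bases or less. The GSTP1 match also contains TGACTCA, the usual site of AP-1 factors. Of these 7 genes, GCLM, TXNRD1 and GSTP1 fell, KEAP1, EPHX1 and MGST1 did not pass, and GPX2 had too few counts to be tested. Other members that fell were searched without a match, among them NQO1, SRXN1, GCLC, SQSTM1, NFE2L2, PRDX2 and GPX4. The search covered only these short windows, so no match does not show that a gene lacks an element. GSR, HMOX1, PRDX1, PRDX6, SOD1 and ABCC3 also fell but had no entry and were not searched. A match in such a window is a description of letters and does not show binding. Among the 10611 tested genes with a window, 443 held the core, of which 32.3% were called lower and 31.2% higher. These shares were close to the 31.1% and 29.3% of all genes tested, which include genes without a window. The median log2 fold change of the 443 was 0.0012, against -0.017 for tested genes with a window but without the core.

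Glutathione is the main small thiol of the cell. Its synthesis starts with glutamate-cysteine ligase, made of a catalytic subunit (GCLC) and a modifier subunit (GCLM), and ends with glutathione synthetase (GSS). Glutathione peroxidases (GPX) use it to reduce peroxides, and glutathione reductase (GSR) returns the oxidised form with NADPH. Of the 9 glutathione members, 8 were tested, of which 6 fell and 0 rose, with a median log2 fold change of -0.37. The shares over all genes tested were 31.1% lower and 29.3% higher.

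GCLM (ENSG00000023909.9; chromosome 1, 93885205 to 93909456, minus strand), with the core shown above in its promoter window, was at 93.8, 93.8 and 88.0 CPM in OTUD1 siRNA libraries, against 189.8, 196 and 202 CPM in control siRNA libraries. Every OTUD1 siRNA library was below every control library, a 2.13-fold decrease (log2 fold change -1.09 ± 0.04 SE, adjusted p = 1.43e-19, edgeR). GCLC had 43.0, 43.4 and 42.9 CPM in OTUD1 siRNA libraries, against 65.1, 63.3 and 62.4 CPM in control siRNA libraries. Here too the groups were apart, with a smaller log2 fold change of -0.56 ± 0.052 (SE, adjusted p = 1.63e-10, edgeR). GSS, the last step, averaged 132 ± 4.07 CPM in OTUD1 siRNA libraries and 137 ± 2.49 CPM in control siRNA libraries (SD, n = 3 each). Its groups overlapped and its log2 fold change of -0.058 had a 95% interval of -0.14 to 0.021 (edgeR adjusted p = 0.198).

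GSR fell about as much as GCLM. It was at 82.3, 86.3 and 86.9 CPM in OTUD1 siRNA libraries, against 189, 194 and 195 CPM in control siRNA libraries. The groups did not overlap, and the decrease was 2.26-fold (log2 fold change -1.18 ± 0.039 SE, adjusted p = 1.39e-20, edgeR).

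The glutathione peroxidases did not move alike. GPX4, the selenoprotein that reduces lipid hydroperoxides in membranes, was at 385, 375 and 383 CPM in OTUD1 siRNA libraries, against 578, 523 and 536 CPM in control siRNA libraries. It fell 1.43-fold with no overlap (log2 fold change -0.52 ± 0.033 SE, adjusted p = 6.18e-14, edgeR). GPX1, the abundant cytosolic selenoprotein, averaged 584 ± 11.9 CPM in OTUD1 siRNA libraries and 582 ± 36.2 CPM in control siRNA libraries (SD, n = 3 each), and its 95% interval for the log2 fold change ran from -0.063 to 0.077 (edgeR adjusted p = 0.878). GPX1 was called higher after quantile normalization (log2 fold change 0.23) and with library totals (0.14), and 2 pseudogenes named after it hold counts equal to 1.21% of its own. The secreted GPX3 fell 1.17-fold (edgeR adjusted p = 0.00807) and GPX8, a peroxidase of the endoplasmic reticulum, 1.13-fold (edgeR adjusted p = 0.0122). GPX3 lost its call without control siRNA replicate 2 (edgeR adjusted p = 0.0531) and with library totals (0.242). GPX8 lost its call without OTUD1 siRNA replicate 3 (edgeR adjusted p = 0.0797), without control siRNA replicate 2 (0.116), with library totals (0.504) and when a mean of at least 5 CPM was required (0.0576), and under limma after quantile normalization (0.153). GPX2, best known from the gut, had 5, 4 and 3 counts in OTUD1 siRNA libraries and 0, 1 and 3 counts in control siRNA libraries, too few for a comparison.

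**Figure D2:**
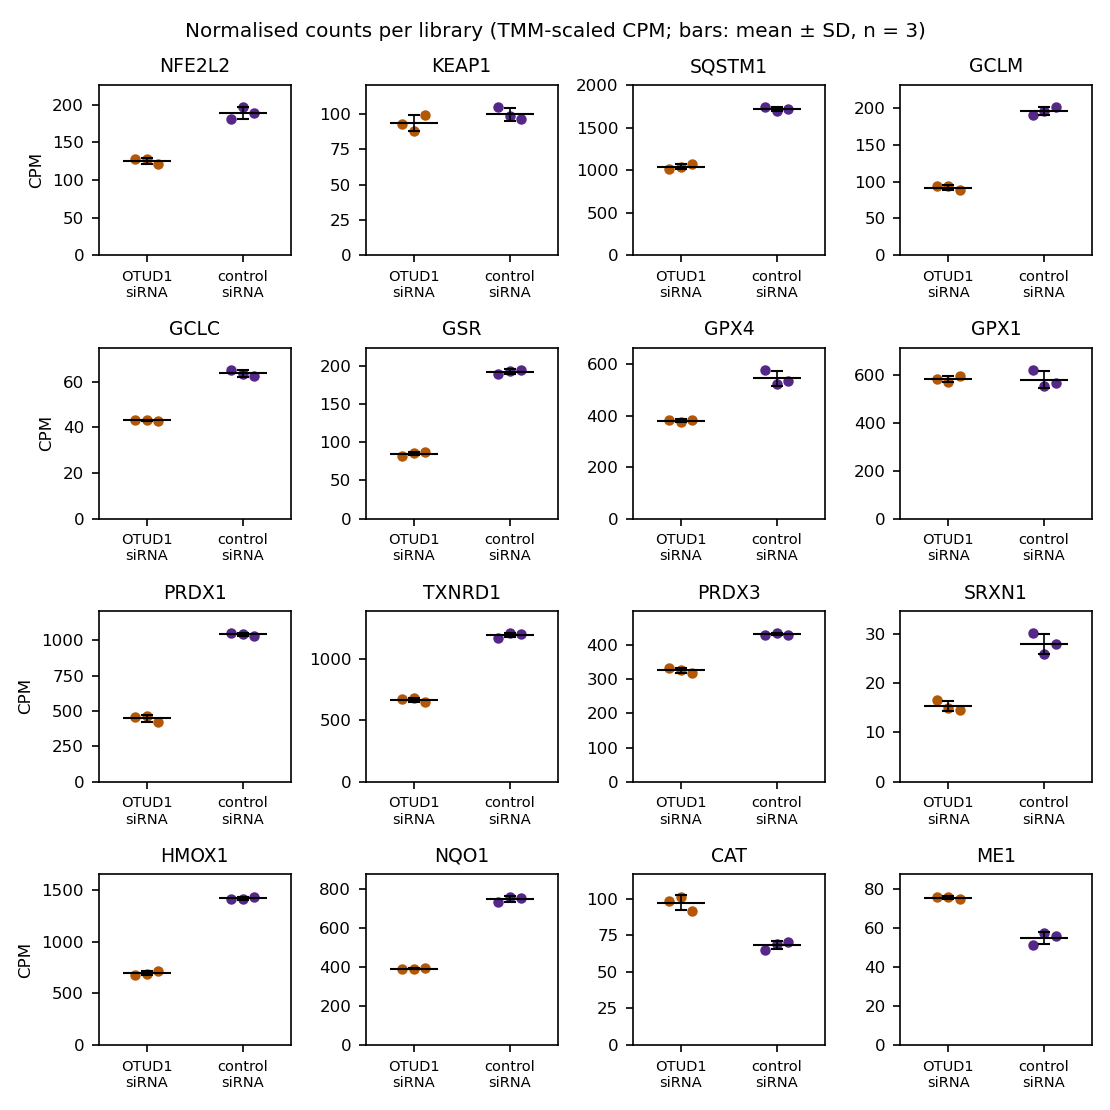
Normalised counts (CPM, vertical axes starting at 0) of 16 members in each library, OTUD1 siRNA on the left and control siRNA on the right of each panel; points are libraries, and bars give the mean and SD of 3. The groups separate in every panel except those of KEAP1 and GPX1, and OTUD1 siRNA libraries are the higher ones for CAT and ME1.

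Thioredoxin (TXN) is a small protein that reduces disulfides, thioredoxin reductase (TXNRD1) recharges it with NADPH, and most peroxiredoxins (PRDX) use it to remove peroxides. All 9 members of this branch were tested, of which 7 fell and 0 rose, with a median log2 fold change of -0.40. Over all genes tested the shares were 31.1% lower and 29.3% higher. PRDX1 (ENSG00000117450.13; chromosome 1, 45511036 to 45523047, minus strand), a cytosolic peroxiredoxin and NRF2 target, fell strongly, close to GSR among the members tested: its log2 fold change of -1.22 stood against -1.18 for GSR, and GSR fell more after quantile normalization and without OTUD1 siRNA replicate 3. It was at 457, 461 and 421 CPM in OTUD1 siRNA libraries, against 1048, 1045 and 1031 CPM in control siRNA libraries. The groups were separated by far more than their spread, a 2.33-fold decrease (log2 fold change -1.22 ± 0.031 SE, adjusted p = 4.19e-23, edgeR). PRDX1 shares 24.9% of its exon bases with MMACHC on the opposite strand, which holds 659 counts over all libraries, against 80292 for PRDX1.

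TXNRD1, a selenoprotein, was at 674, 679.8 and 649.6 CPM in OTUD1 siRNA libraries, against 1169.9, 1206 and 1198 CPM in control siRNA libraries. It fell 1.78-fold without overlap (log2 fold change -0.84 ± 0.027 SE, adjusted p = 1.26e-20, edgeR). Its substrate TXN fell less, to 386, 393 and 359 CPM in OTUD1 siRNA libraries, against 443, 448 and 432 CPM in control siRNA libraries (log2 fold change -0.22 ± 0.033 SE, adjusted p = 1.9e-06, edgeR), and its log2 fold change was 0.00597 after quantile normalization. SRXN1, sulfiredoxin, which repairs over-oxidised peroxiredoxins, was at 16.5, 15 and 14.6 CPM in OTUD1 siRNA libraries, against 30.1, 26.0 and 27.9 CPM in control siRNA libraries. That is a 1.82-fold decrease (log2 fold change -0.86 ± 0.082 SE, adjusted p = 3.23e-10, edgeR). A second annotated gene on the same strand, AL121758.1, covers 85% of the exon bases of SRXN1 and holds 20 counts in all, so its level depends on how shared reads were assigned.

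The other peroxiredoxins ranged from a clear fall to no call. PRDX3, the mitochondrial form, was at 334, 326 and 317 CPM in OTUD1 siRNA libraries, against 430.3, 434 and 429 CPM in control siRNA libraries (log2 fold change -0.40 ± 0.031 SE, adjusted p = 2.34e-12, edgeR), with no overlap. PRDX2, a cytosolic form, fell 1.72-fold (edgeR adjusted p = 8.49e-10). PRDX6 fell 1.08-fold (log2 fold change -0.12, edgeR adjusted p = 0.00428), but its log2 fold change was 0.033 after quantile normalization and 0.013 with library totals, and it lost its call when a mean of at least 5 CPM was required (-0.068). PRDX5 had 311 ± 4.16 CPM in OTUD1 siRNA libraries and 295 ± 38.3 CPM in control siRNA libraries (SD, n = 3 each), and the groups overlapped because control siRNA replicate 1 was at 339 CPM. PRDX5 was called higher without that library (log2 fold change 0.19), and also with library totals (0.21), after quantile normalization (0.25) and when a mean of at least 5 CPM was required (0.13). TXNIP, the inhibitor of thioredoxin, averaged 21.1 ± 0.649 CPM in OTUD1 siRNA libraries and 18.7 ± 2.29 CPM in control siRNA libraries (SD, n = 3 each) and did not pass (edgeR adjusted p = 0.0794), while it was called higher without control siRNA replicate 3 (log2 fold change 0.26), with library totals (0.31) and when a mean of at least 5 CPM was required (0.23).

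The enzymes that remove superoxide and hydrogen peroxide directly went opposite ways. CAT, catalase of the peroxisome, was at 98.7, 102 and 91.8 CPM in OTUD1 siRNA libraries, against 65.0, 69.4 and 70.5 CPM in control siRNA libraries. Each OTUD1 siRNA library was above each control library, a 1.43-fold increase (log2 fold change 0.51 ± 0.048 SE, adjusted p = 2.76e-10, edgeR). SOD1, the cytosolic copper-zinc superoxide dismutase, was at 161, 166 and 158 CPM in OTUD1 siRNA libraries, against 194, 185 and 185 CPM in control siRNA libraries (log2 fold change -0.22 ± 0.036 SE, adjusted p = 8.32e-06, edgeR). After quantile normalization SOD1 no longer passed (log2 fold change -0.075).

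NADPH feeds both glutathione reductase and thioredoxin reductase. Of the 4 NADPH members, 3 enzymes of the pentose phosphate pathway fell and malic enzyme rose. PGD, 6-phosphogluconate dehydrogenase, had 104, 104 and 106 CPM in OTUD1 siRNA libraries, against 149, 152 and 148 CPM in control siRNA libraries (log2 fold change -0.51 ± 0.038 SE, adjusted p = 1.57e-12, edgeR). Transaldolase TALDO1 had 256, 253 and 256 CPM in OTUD1 siRNA libraries, against 345, 342 and 335 CPM in control siRNA libraries (log2 fold change -0.42 ± 0.031 SE, adjusted p = 1.98e-12, edgeR). Both pairs of groups were separate.

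Transketolase TKT fell less, with 423, 414 and 417 CPM in OTUD1 siRNA libraries, against 509, 509 and 497 CPM in control siRNA libraries (log2 fold change -0.27 ± 0.029 SE, adjusted p = 3.02e-09, edgeR). After quantile normalization TKT no longer passed (log2 fold change -0.041). ME1, the cytosolic malic enzyme, was at 76.2, 75.9 and 74.9 CPM in OTUD1 siRNA libraries, against 51.4, 57.5 and 55.9 CPM in control siRNA libraries. The groups did not overlap, and ME1 was 1.37-fold higher (log2 fold change 0.46 ± 0.05 SE, adjusted p = 5.63e-09, edgeR) although it is commonly listed with the NRF2 targets.

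Among the 14 detoxification and stress members, 13 were tested, of which 5 fell, 1 rose and 7 did not pass, with a median log2 fold change of -0.12. The shares over all genes tested were 31.1% lower and 29.3% higher, so the count of falls here was not far from the general rate. HMOX1 (ENSG00000100292.16; chromosome 22, 35380361 to 35394214, plus strand), heme oxygenase, was at 678, 689 and 721 CPM in OTUD1 siRNA libraries, against 1414, 1411 and 1438 CPM in control siRNA libraries. It fell 2.04-fold with widely separate groups (log2 fold change -1.03 ± 0.028 SE, adjusted p = 1.3e-22, edgeR). NQO1, the quinone reductase often used as a readout of NRF2, was at 389, 391 and 397 CPM in OTUD1 siRNA libraries, against 734, 762 and 753 CPM in control siRNA libraries. Its decrease was 1.91-fold (log2 fold change -0.93 ± 0.029 SE, adjusted p = 2.46e-21, edgeR), again with no overlap.

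The remaining called members of this group changed by less than 1.5-fold. GSTP1, a glutathione S-transferase, had 614, 622 and 637 CPM in OTUD1 siRNA libraries, against 779.6, 762 and 782 CPM in control siRNA libraries (log2 fold change -0.31 ± 0.028 SE, adjusted p = 8.24e-11, edgeR). ABCC3, an export pump for glucuronide conjugates, had 92.0, 86.0 and 86.3 CPM in OTUD1 siRNA libraries, against 111, 112 and 112 CPM in control siRNA libraries (log2 fold change -0.34 ± 0.042 SE, adjusted p = 5.56e-08, edgeR). UGDH, which makes UDP-glucuronate, fell 1.28-fold (edgeR adjusted p = 1.84e-05). For GSTP1, ABCC3 and UGDH the groups did not overlap.

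GSTM3, another glutathione S-transferase, went the other way, with 51.6, 46.4 and 50 CPM in OTUD1 siRNA libraries, against 44.7, 43.0 and 43.4 CPM in control siRNA libraries. The groups were close but separate (log2 fold change 0.18 ± 0.057 SE, adjusted p = 0.00872, edgeR), and the call was lost without OTUD1 siRNA replicate 1 (edgeR adjusted p = 0.0694).

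Well measured members that did not pass were OSGIN1, MGST1 and EPHX1. OSGIN1, an oxidative stress-induced growth inhibitor, averaged 97.2 ± 0.844 CPM in OTUD1 siRNA libraries and 97.1 ± 5.76 CPM in control siRNA libraries (SD, n = 3 each), with a 95% interval of -0.091 to 0.093 for its log2 fold change. MGST1, a microsomal glutathione transferase, had an interval of -0.027 to 0.14, and the epoxide hydrolase EPHX1 one of -0.22 to 0.05. MGST1 was called higher without control siRNA replicate 2 (log2 fold change 0.11), with library totals (0.19), after quantile normalization (0.19) and when a mean of at least 5 CPM was required (0.11). OSGIN1 was called higher with library totals (0.13).

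AKR1B10 and the AKR1C genes, aldo-keto reductases that in many NRF2-active tumours are among the strongest markers of the pathway, were low in both groups. AKR1C3 had 70, 52 and 44 counts in OTUD1 siRNA libraries and 46, 57 and 56 counts in control siRNA libraries, and AKR1C1 had 27, 34 and 27 counts in OTUD1 siRNA libraries and 28, 21 and 27 counts in control siRNA libraries. AKR1C2 had 4, 1 and 5 counts in OTUD1 siRNA libraries and 0, 2 and 0 counts in control siRNA libraries and was not tested. Of all 50-base stretches in annotated AKR1C2 transcripts, 38.1% also occur in AKR1C1 transcripts, so reads of this pair may be split between them and both values are uncertain. AKR1C3 shares 2.89% of its stretches with AKR1C1. At these counts the 95% interval of the log2 fold change was wide, from -0.58 to 0.24 for AKR1C3 and from -0.61 to 0.57 for AKR1C1. It ran from -0.68 to 0.71 for AKR1B10 and from -0.90 to 0.65 for the export pump ABCC2. Changes within each interval remain compatible with the counts.

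Levels were compared between genes as CPM per kilobase of annotated exon. In OTUD1 siRNA libraries PRDX1 was at 294 ± 14.5 and HMOX1 at 289 ± 9.4 CPM per kilobase (SD, n = 3 each), ranks 5 and 6 of the 41 members, and these neighbours differed by less than their spread. In control siRNA libraries PRDX1 ranked first at 684 ± 6.13, followed by HMOX1 at 591 ± 6.1 CPM per kilobase. GPX1 ranked first in OTUD1 siRNA libraries, at 408 ± 8.31 in OTUD1 siRNA libraries and 407 ± 25.3 CPM per kilobase in control siRNA libraries. GCLM ranked 25 in OTUD1 siRNA libraries and 18 in control siRNA libraries, while CAT ranked 18 in OTUD1 siRNA libraries and 24 in control siRNA libraries. Exon lengths count every annotated transcript, so they overstate the length of genes with many isoforms.

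**Figure D3:**
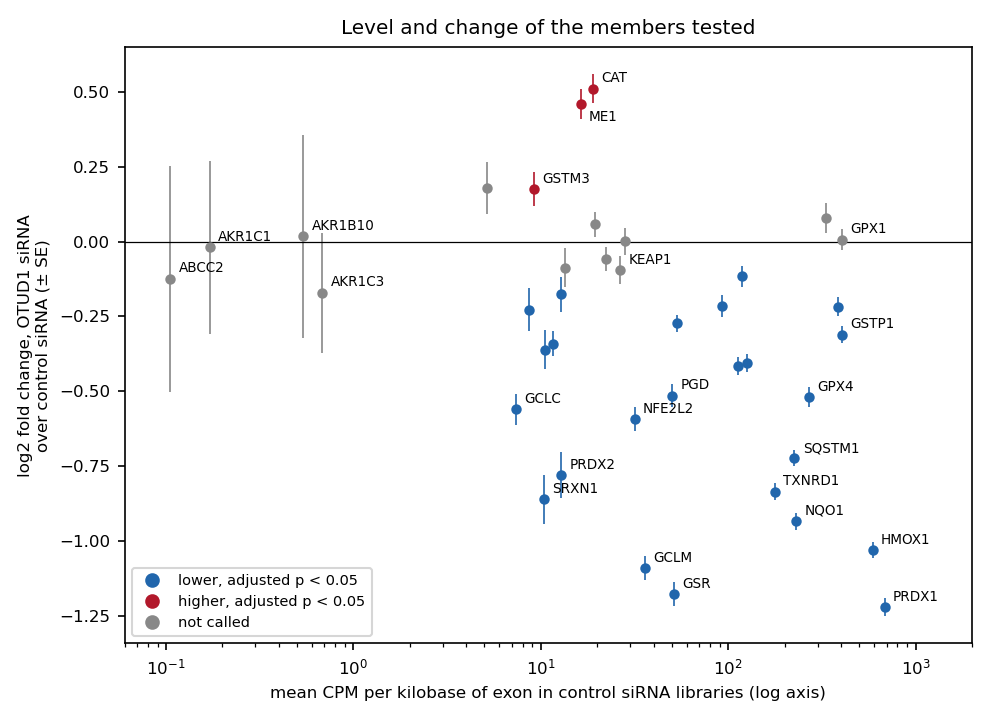
Mean level of each tested member in control siRNA libraries (CPM per kilobase of exon, log axis, horizontal) against its log2 fold change (OTUD1 siRNA over control siRNA, vertical, points with SE bars). Called decreases occur from GCLC at 7.35 to PRDX1 at 684 CPM per kilobase, and the 4 members below 1 CPM per kilobase, none of them called, have the widest errors.

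Ratios of counts within a library do not depend on the scaling, and 8 such ratios were taken after the values had been seen. The ratio of GCLM to GCLC counts was 2.18, 2.16 and 2.05 in OTUD1 siRNA libraries, against 2.92, 3.1 and 3.23 in control siRNA libraries, so the modifier subunit fell more than the catalytic one. TXNRD1 to TXN was 1.75, 1.73 and 1.81 in OTUD1 siRNA libraries, against 2.64, 2.69 and 2.77 in control siRNA libraries. GSR to GSS was 0.627, 0.676 and 0.64 in OTUD1 siRNA libraries, against 1.4, 1.42 and 1.4 in control siRNA libraries. In each of these ratios the groups were far apart relative to their spread.

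The ratio of NFE2L2 to KEAP1 counts was 1.38, 1.45 and 1.22 in OTUD1 siRNA libraries, against 1.73, 2.01 and 1.96 in control siRNA libraries, and SQSTM1 to KEAP1 was 0.647-fold of its control value. For PGD to ME1 the ratio averaged 1.38 ± 0.033 in OTUD1 siRNA libraries and 2.72 ± 0.148 in control siRNA libraries, and for SOD1 to CAT it averaged 1.66 ± 0.0537 in OTUD1 siRNA libraries and 2.76 ± 0.195 in control siRNA libraries (SD, n = 3 each). None of the 8 ratios overlapped between groups. The pairs were picked with these values known, so their separation is a description and no independent test. Among all single genes tested, 33% did not overlap with the OTUD1 siRNA libraries lower and 31.5% with them higher. A ratio is another measure, and no such share was taken over pairs of genes. Each ratio had an exact permutation p = 0.1 (two-sided, and 0.1 after adjustment over the 8), the smallest that 3 libraries against 3 can give.

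Other genes of the same pathway, outside the 41 members, did not lean one way. Of 112 such genes listed by role, 99 were tested, of which 37 fell (37.4%) and 32 rose (32.3%), with a median log2 fold change of 0.013. With library totals 26 fell and 45 rose. Across all genes tested, 31.1% were called lower and 29.3% higher, close to these shares, and the counts by role below are read against them. This list too was made with earlier results of these data known. Among 15 tested regulators and partners, 11 fell and 2 rose. NFE2L3, a relative of NRF2, fell 1.4-fold and the small MAF partner MAFG 1.33-fold, while NFE2L1, another relative that drives proteasome genes, rose 1.4-fold, with 465 ± 8.7 CPM in OTUD1 siRNA libraries and 333 ± 7.57 CPM in control siRNA libraries (edgeR adjusted p = 5.24e-14). PALB2, which binds KEAP1 as well as BRCA2, rose 1.22-fold.

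In the glutathione branch 5 other genes fell and 5 rose of 18 tested. SLC7A11, the light chain of the cystine importer that supplies glutathione synthesis, was at 35.0 ± 1.62 CPM in OTUD1 siRNA libraries and 76.6 ± 1.92 CPM in control siRNA libraries (log2 fold change -1.13, edgeR adjusted p = 6.3e-17). Its heavy chain SLC3A2 fell 1.53-fold, and GLO1, which uses glutathione to clear methylglyoxal, 1.5-fold. The 5 that rose were CBS (1.63-fold), GGT1 (1.32-fold), LANCL1 (1.16-fold), HAGH (1.13-fold) and GGT7 (1.13-fold). The groups of CBS and HAGH overlapped.

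In the thioredoxin branch 2 other genes fell and 7 rose of 13 tested, whereas 7 members fell. PRDX4, the peroxiredoxin of the endoplasmic reticulum, was at 78.7, 75.8 and 83.3 CPM in OTUD1 siRNA libraries, against 44.6, 39.6 and 41.6 CPM in control siRNA libraries. It rose 1.89-fold (log2 fold change 0.92 ± 0.055 SE, adjusted p = 1.24e-14, edgeR), and the ratio of PRDX1 to PRDX4 counts was 5.65 ± 0.531 in OTUD1 siRNA libraries and 24.9 ± 1.46 in control siRNA libraries (SD, n = 3 each). SESN1, a p53-regulated sestrin, rose 1.56-fold, while the thioredoxin-like NXN fell 1.38-fold and the mitochondrial reductase TXNRD2 1.21-fold.

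Of 15 other NADPH genes tested, 5 fell and 6 rose. IDH1, cytosolic isocitrate dehydrogenase, rose 1.46-fold and the mitochondrial transhydrogenase NNT 1.33-fold, while the folate enzymes MTHFD2 and MTHFD1 fell 1.26-fold and 1.2-fold. SOD2, whose symbol stands on 2 rows of the table so that its value is uncertain, was 1.3-fold higher and the only call among 3 other genes of superoxide removal. Of 35 other detoxification genes tested, 14 fell and 11 rose. ALDH3A2, fatty aldehyde dehydrogenase, fell 2.06-fold, TRIM16L 1.74-fold and ferritin heavy chain FTH1 1.49-fold. In contrast, CYP1B1, an oestrogen- and xenobiotic-oxidising P450, rose 2.04-fold and the biliverdin reductase BLVRB 1.37-fold.

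**Figure D4:**
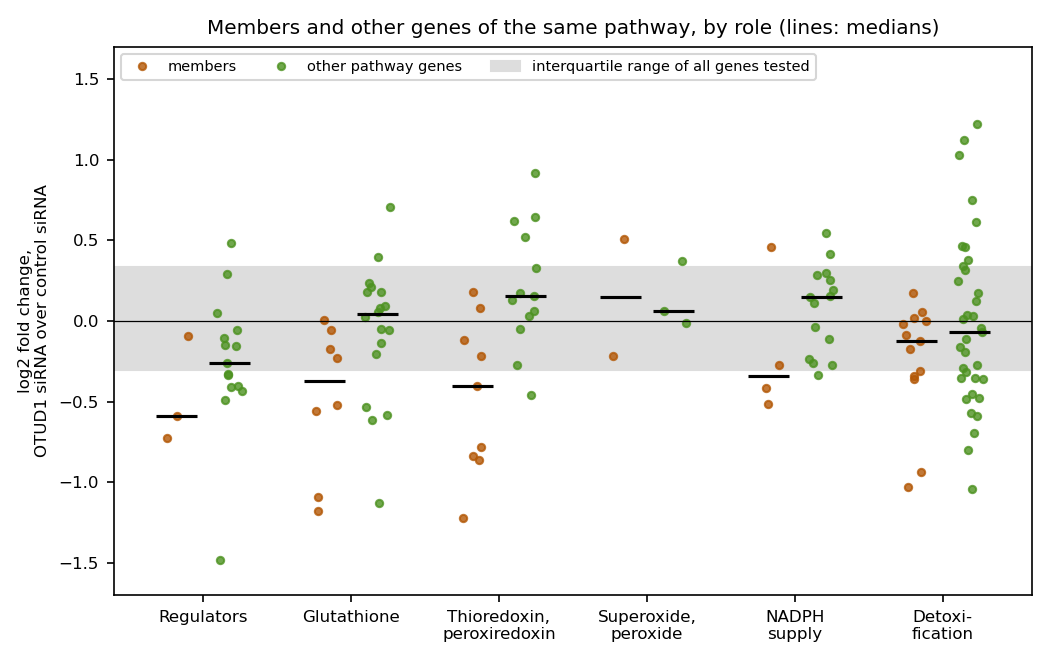
Log2 fold change (OTUD1 siRNA over control siRNA, vertical) of tested members and of the other pathway genes, by role; points are genes, lines are medians and the grey band is the interquartile range of all genes tested. The members' medians are -0.37 for glutathione, -0.40 for thioredoxin, -0.34 for NADPH and -0.12 for detoxification, against 0.04, 0.16, 0.15 and -0.069 for the other genes of those roles.

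Set side by side, the glutathione, thioredoxin and NADPH members had medians of -0.37, -0.40 and -0.34 on the log2 scale, and the detoxification members one of -0.12. Summed levels followed the most abundant members. The thioredoxin members summed to 2371 to 2484 CPM in OTUD1 siRNA libraries, against 3727 to 3777 CPM in control siRNA libraries. For detoxification the sums were 2141 to 2209 CPM in OTUD1 siRNA libraries, against 3406 to 3438 CPM in control siRNA libraries, and for glutathione 1367 to 1398 CPM in OTUD1 siRNA libraries, against 1749 to 1854 CPM in control siRNA libraries. The NADPH members summed to 847 to 859 CPM in OTUD1 siRNA libraries, against 1035 to 1060 CPM in control siRNA libraries. The sums of SOD1 and CAT overlapped, at 250 to 267 CPM in OTUD1 siRNA libraries and 254 to 259 CPM in control siRNA libraries. Whether the groups of members differ from each other was not tested.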

How the data were processed

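RNA-seq libraries of ACHN cells, 3 per group, were made from Trizol-extracted RNA with a directional kit, per the labels' protocols. The submitters' processing notes name hg38. The sources used here do not give the aligner, counting tool, strand setting or annotation. The deposited table gives whole-number counts per gene symbol, and totals differ between libraries, although its name speaks of FPKM. Counts were analysed with edgeR 4.0.16 (R 4.3.3): filterByExpr (minimum count 10), TMM scaling, then a two-sided quasi-likelihood test (glmQLFit, glmQLFTest). P-values were adjusted by Benjamini-Hochberg over 15244 genes, with a threshold of 0.05. The SE is the size of the log2 fold change over the square root of F. The test was tried on simulated data. Positions and exon lengths come from GENCODE 29 (hg38), whose symbols matched 99.95% of rows. Within a group, the mean chi-square per gene between libraries was 2.05 to 3.72, above counting noise. Values by library are given for the regulators, up to 4 called members of each other role with the smallest adjusted p, called members against their group's majority, and the AKR1C genes. For other pathway genes, up to 3 called per role and up to 2 against the majority are named. In the glutathione role, where falls and rises were tied, the genes that rose were added after their values were seen. Further members were described after their values were seen. Members and lists were chosen with earlier results of these data known. Alternatives covered filters, scaling, DESeq2 1.42.0, limma 3.58.1, a replicate block and each library left out. Counting floors cover counting error only.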

Additional observations from a re-analysis of the deposited data

How the results depend on the processing

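The number of members called lower ranged from 19 to 24 over all alternatives, against 24. Members called higher numbered 3, against 6 with a minimum mean of 5 CPM, 8 with library totals and 6 with limma after quantile normalization, and 2 to 4 when each library was left out. Library totals moved the median log2 fold change of all genes to 0.13, against 0.0056 under TMM, and that of the members to -0.098, against -0.23, so both moved up together. The log2 fold change of TXN turned to 0.00597 after quantile normalization, and PRDX6 to 0.033 there and 0.013 with library totals. Other pathway genes called lower numbered 26 with library totals, against 37, and 45 were called higher, against 32. The replicate numbers did not pair the libraries (correlation of same-numbered deviations -0.0229, 0.0178 and -0.0182), and only replicate 2 of the OTUD1 siRNA group correlated best with its own number. With the replicate block 24 members were called lower and 3 higher, and OTUD1 had a log2 fold change of -1.69. OTUD1 ranged from -1.81 to -1.50 without single libraries. The causes of these shifts were not tested. Depth limits AKR1B10, the AKR1C genes, ABCC2 and GPX2.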
